A study of Homo sapiens with 8 samples.

Results

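The genes behind siRNA and microRNA silencing were followed here as a set of 10: the Argonautes AGO1, AGO2, AGO3 and AGO4, their TNRC6 partners TNRC6A, TNRC6B and TNRC6C, the nucleases DROSHA and DICER1, and the exportin XPO5. They were chosen by symbol, and all 10 were found among the 20165 gene regions for which ribosome-protected footprints were counted. The libraries came from OVCAR3, an established human ovarian carcinoma line, and each of the 4 groups held 2 libraries. The siControl cells received a control siRNA at 30 nM, and the siTARG1 cells received the same dose of an siRNA against OARD1, the gene of the ADP-ribose hydrolase TARG1. Both were harvested after 48 h. The RACK1-WT and RACK1-Mut cells were lentivirally engineered OVCAR3 cells treated with doxycycline at 1 µg/mL for 48 h, which switched on a pTRIPZ hairpin against endogenous RACK1 and, in its place, an HA-tagged RACK1. That RACK1 was wild type in RACK1-WT and carried mutations at its sites of mono(ADP-ribosyl)ation in RACK1-Mut. Every group therefore carried an RNA interference trigger, a transfected duplex in the siRNA libraries and an expressed hairpin in the RACK1 libraries, and none was free of one. The sequences of these triggers are not given in the sources used here.

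DROSHA, the nuclear endonuclease of the Microprocessor, cuts hairpins out of primary microRNA transcripts, XPO5 carries them to the cytoplasm, and DICER1 cuts them into duplexes. An Argonaute then keeps a strand of the duplex as a guide and, through it, binds messenger RNAs, and AGO2 is the member of the family best known for slicing a fully matched target. TNRC6 proteins bind Argonautes through glycine-tryptophan repeats and recruit the deadenylases that shorten poly(A) tails. A transfected siRNA enters this route at the Argonautes, whereas a microRNA-adapted hairpin such as that of pTRIPZ enters it at DROSHA.

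The libraries held between 3100947 and 6604190 counts over coding sequences. The 10 genes together drew 1875 to 3181 of these in a library. That was 0.0643% to 0.0702% of the coding counts in the 4 siRNA libraries and 0.0459% to 0.0503% in the 4 RACK1 libraries. The targeted gene followed its label, with 138 and 58 OARD1 footprints in siControl against 7 and 6 in siTARG1. RACK1 footprints were 0.746-fold in RACK1-Mut against RACK1-WT (adjusted p = 1.34e-08, DESeq2). Of the markers of the line, PAX8 gave 1145 to 3622, EPCAM 2065 to 4044 and MUC16 4958 to 11994 counts, whereas WT1 gave 73 to 409. PTPRC and CD3E, which mark leukocytes, and the germline markers DDX4 and DAZL gave between 0 and 2 counts in every library. The fibroblast markers COL1A1, COL1A2 and PDGFRB gave 58 to 231, 7 to 34 and 0 to 6, and the endothelial VWF 2 to 15. Keratins of the line moved with the groups, but not in the same direction. KRT18 went from 14051 and 9762 counts in siControl to 5668 and 4821 in siTARG1, and KRT8 from 13929 and 10551 to 6750 and 5805. KRT7 went from 2806 and 1934 in siControl to 3857 and 3030 in siTARG1, and gave 7532 to 14390 in the RACK1 libraries. Their part in the results was not tested. In footprint counts of bulk lysates, fewer cells of a kind, less messenger RNA per cell and fewer ribosomes on each messenger RNA cannot be told apart, and the matched RNA-seq was not analysed here.

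Levels were compared between genes as footprints per kb of coding sequence, after scaling the 8 libraries together by DESeq2 size factors. XPO5 stood highest in every group, at 207 ± 7.76 in siControl, 210.0 ± 3.07 in siTARG1, 166 ± 4.16 in RACK1-WT and 166 ± 8.64 in RACK1-Mut (SD, n = 2). DROSHA came next in every group, from 88.1 ± 0.595 in RACK1-Mut to 130.0 ± 1.27 in siTARG1 (SD, n = 2). In no group did the libraries of either gene overlap with those of the gene below it. At the other end, AGO4 (6.90 to 10.0 per kb as group means) and TNRC6C (4.44 to 7.19 per kb) were lowest in all 4 groups. They rested on 8 to 34 and 11 to 58 counts in a library, and their intervals in every comparison were the widest of the 10.

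The middle of the order was where the groups parted. In siControl it ran TNRC6A, AGO1, DICER1, TNRC6B and then AGO2 and AGO3, whose libraries overlapped. In siTARG1, TNRC6B lay below AGO3, at 19.8 ± 3.35 per kb (SD, n = 2). In RACK1-WT and RACK1-Mut, AGO2 held the third place at 73.9 ± 1.17 and 77.6 ± 11.4 per kb (SD, n = 2), and TNRC6A the eighth. AGO1 and TNRC6B overlapped in both RACK1 groups, and so did AGO3 and DICER1. The authors' RPKM values placed the genes in the same order in all 4 groups. They were computed from the same counts, so this is no separate check.

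**Figure D1:**
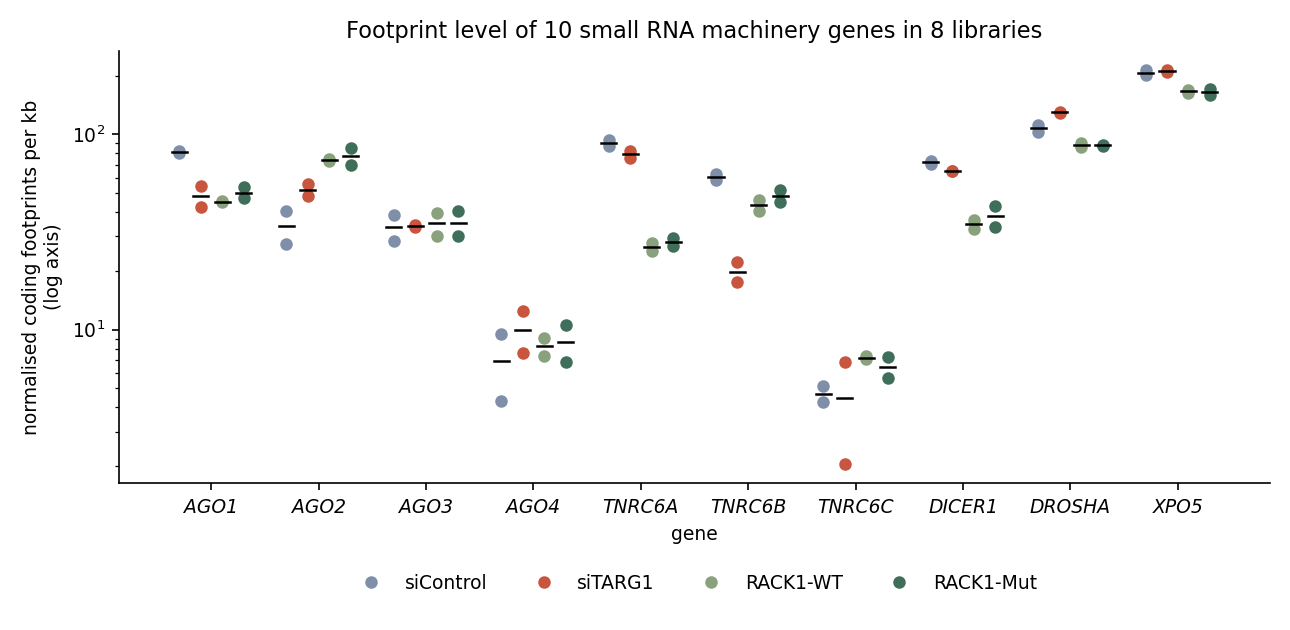
Coding footprints per kb, normalised over the 8 libraries, for each gene on a log axis. Each point is a library, coloured by group, and the bar is the mean of 2 libraries. TNRC6B is lowest in siTARG1, AGO1 is highest in siControl, and TNRC6A and DICER1 are higher in all 4 siRNA libraries than in any RACK1 library.

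The first comparison asked which of these genes differed in footprints after knockdown of TARG1. TNRC6B, the TNRC6 paralog with the longest 3′ UTR of the family, fell to 32.3% of its control level. The Argonaute AGO1 fell to 59.6%. These were 2 of 10 genes called at an adjusted p under 0.05, both lower, where 16.4% of all 12056 genes tested were called and 9.19% were called lower. The number of calls was thus near the background, and the values of each gene follow.

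TNRC6B (chr22:40440821-40731812, plus strand, GRCh37) gave 346 and 236 footprints in siControl but 101 and 95 in siTARG1. The groups did not overlap. On the scale normalised over 8 libraries its count was 341 ± 18.6 in siControl and 111 ± 18.8 in siTARG1 (SD, n = 2). The log2 fold change was -1.63 with a standard error of 0.218 (adjusted p = 6.27e-12, DESeq2). Among the 6133 genes with a mean of at least 100 normalised counts in this comparison, 48 had a more negative fold change. On the 8-library scale both RACK1 groups lay between, with 243 ± 22.5 in RACK1-WT and 273 ± 26.9 in RACK1-Mut (SD, n = 2), so that the siTARG1 libraries were the lowest of the 8. By the authors' RPKM both RACK1 groups stood above siControl, at 4.78 and 6.16 against 4.65, with siTARG1 at 1.43. The call held under every alternative setting, with a log2 fold change between -1.79 and -1.45.

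AGO1 gave 206 and 148 footprints in siControl and 113 and 107 in siTARG1. The groups did not overlap here either. Normalised, these were 208 ± 3.70 and 125 ± 21.7 (SD, n = 2), a log2 fold change of -0.75 with a standard error of 0.243 (adjusted p = 0.0163, DESeq2). The RACK1 groups, of a separate experiment, stood at 116 ± 1.26 and 129 ± 12.1 (SD, n = 2), beside siTARG1, and on this scale siControl was the highest of the 4 groups. By the authors' RPKM, RACK1-Mut was highest, at 6.37 against 6.17 in siControl. The call was lost whenever any of the 4 libraries was left out, with adjusted p between 0.105 and 0.496, while the log2 fold change stayed between -0.92 and -0.57.

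The fold changes of the other Argonautes were above 0, and none was called by DESeq2. AGO2 gave 102 and 51 footprints in siControl and 128 and 109 in siTARG1, a log2 fold change of 0.59 (95% interval -0.0013 to 1.18) that did not pass the test (adjusted p = 0.181, DESeq2). With edgeR it passed, at an adjusted p of 0.0352. AGO3 (chr1:36396319-36538101), whose gene follows AGO1 (chr1:36335409-36396133) on the same strand, gave 97 and 53 against 89 and 68 footprints, and its log2 fold change was 0.01 (95% interval -0.63 to 0.65). The groups overlapped. AGO4, upstream of AGO1 in the same cluster (chr1:36273617-36323491), gave 24 and 8 against 33 and 15, too few to narrow its interval beyond -0.79 to 1.83.

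TNRC6A, the other abundant TNRC6 paralog, gave 538 and 369 footprints in siControl and 501 and 341 in siTARG1, a log2 fold change of -0.19 (95% interval -0.47 to 0.09; adjusted p = 0.425). TNRC6C gave 26 and 16 against 11 and 27. Upstream of the Argonautes, no gene passed the test. DROSHA gave 451 and 306 against 555 and 405 footprints (log2 fold change 0.27, 95% interval -0.01 to 0.55, adjusted p = 0.21). DICER1 gave 414 and 292 against 384 and 286, with an interval of -0.46 to 0.15. The interval of XPO5, from -0.21 to 0.26, was the narrowest of the 10. Normalised libraries of siControl and siTARG1 did not overlap for 6 of the 10 genes, where this held for 62.6% of all genes tested.

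**Figure D2:**
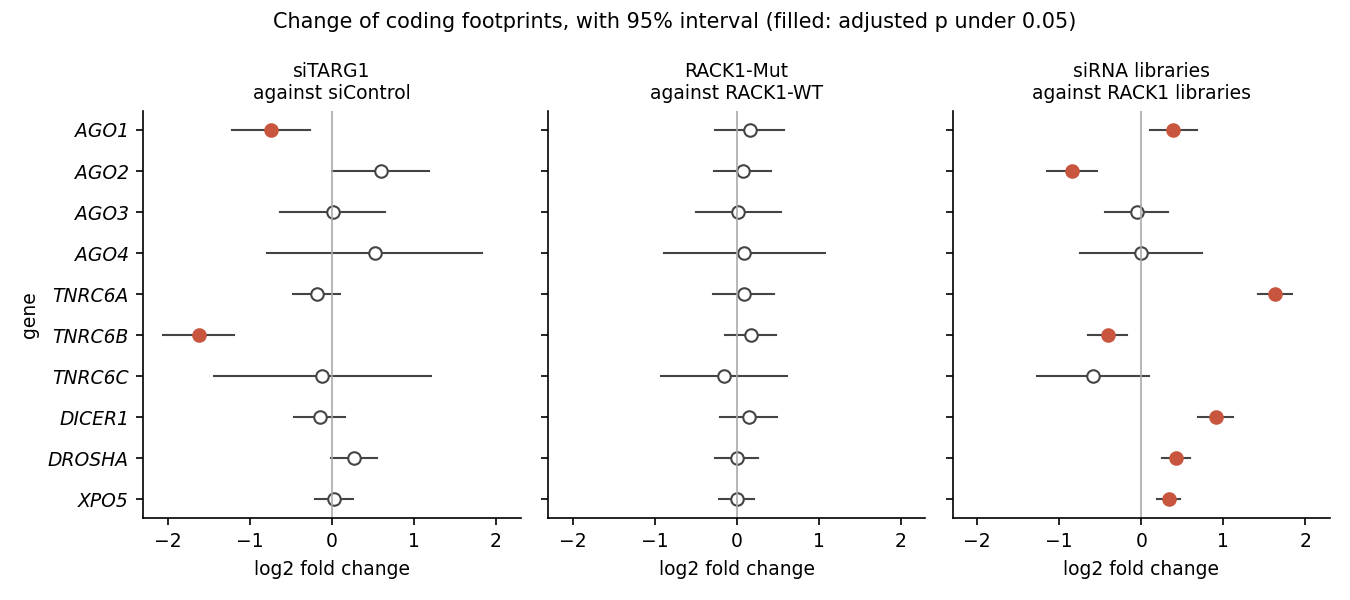
Log2 fold change of coding footprints for each gene in the 3 comparisons, with lines for the 95% interval from DESeq2 and filled points for an adjusted p under 0.05. TNRC6B and AGO1 are filled on the left, no gene is filled in the middle, and 7 genes are filled on the right, with TNRC6A at 1.63.

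Because the paralogs share a function, their proportions were also described within each library, where scaling between libraries plays no part. Of the per-kb footprints of the TNRC6 family, TNRC6B made up 39.0% in either siControl library but 17.1% and 21.1% under siTARG1. TNRC6A made up 57.8% and 58.2% in siControl and 80.9% and 72.4% in siTARG1. The summed level of the family was 156 ± 8.47 per kb in siControl and 104 ± 2.04 in siTARG1 (SD, n = 2). Within the Argonautes, AGO1 made up 48.1% and 57.0% in siControl and 31.2% and 35.9% in siTARG1, and AGO2 19.6% to 23.8% and 35.3% to 36.4%. AGO3 kept 20.3% to 24.5% in these 4 libraries. The summed Argonaute level, 155 ± 21.3 and 144 ± 11 per kb (SD, n = 2), overlapped between siControl and siTARG1.

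Reads of one paralog could be counted for another where their sequences are identical over a footprint. The search was for exact matches of 28 nt, so shorter reads and near matches were not covered. AGO1 and AGO3 shared 5 of the 2547 stretches of 28 nt in the AGO1 coding sequence, and no other pair of the 10 genes shared any. Aligned coding sequences were 70.3% to 75.2% identical among the Argonautes and 59.6% to 62.2% among the TNRC6 genes. TNRC6B shared 7 of its 5475 such stretches with genes outside the family, 0.128%.

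**Figure D3:**
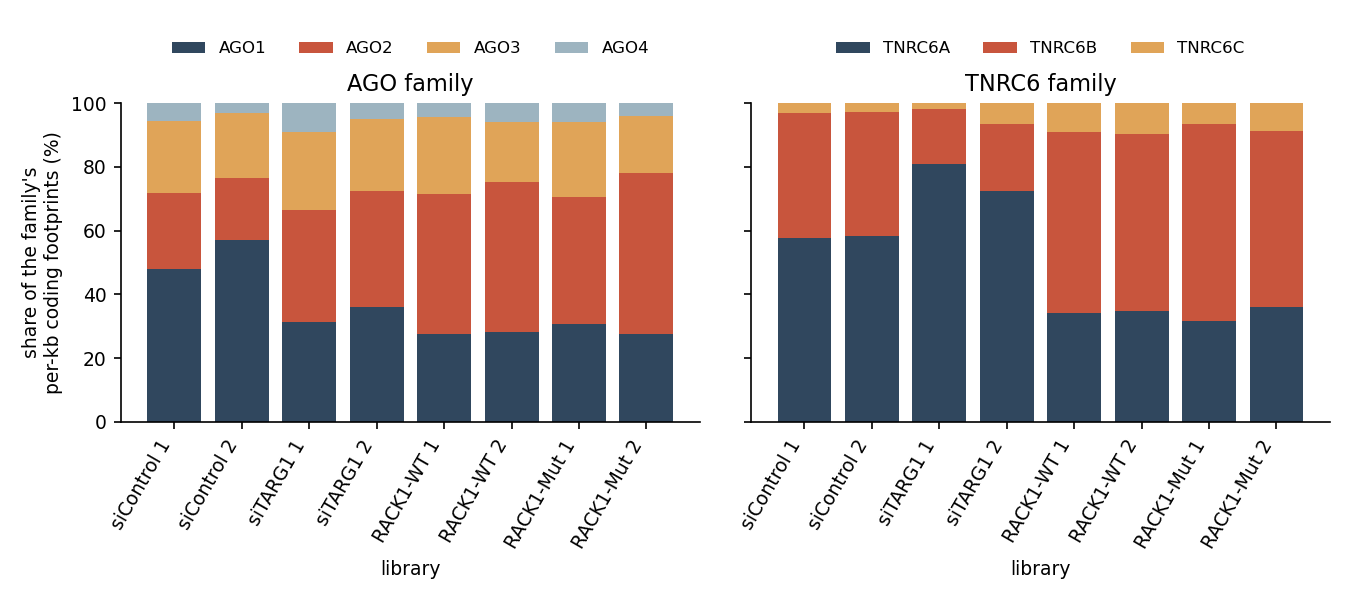
Share of each paralog in the per-kb coding footprints of the Argonaute family (left) and the TNRC6 family (right), in percent, with a bar for each of the 8 libraries. TNRC6B takes 39.0% in both siControl libraries, 17.1% and 21.1% in siTARG1 and 55.2% to 61.5% in the RACK1 libraries, and AGO1 takes its largest shares in siControl.

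The 3′ UTR is where guide strands find most of their partly matched targets, so the 3′ UTRs were searched for words of 7 bases on the transcript strand. Among all such words, TGAACAT and GAACATA differed most in frequency between the genes called lower in siTARG1 and the other genes tested. TGAACAT occurred in 31.7% of the 1091 genes called lower that had a 3′ UTR model and in 13.6% of the other 10753, and GAACATA in 21.8% and 8.35%. They overlap to form TGAACATA. The words were picked from this same comparison, TNRC6B and AGO1 included, so what follows is a description of where they lie. TNRC6B holds them at 4 places of its 12567 nt 3′ UTR (chromosome 22, plus strand, GRCh37), AGO1 at 1 place of 10925 nt (chromosome 1, plus strand). These are shown because they lie in the only members called lower, with 10 bases to each side, written 5′ to 3′ with the word in capitals.
TNRC6B, 219 nt after the stop codon, chr22:40719454-40719480: tccaaaaagaGAACATAtcactcttga
TNRC6B, 4673 nt after the stop codon, chr22:40723908-40723934: gtacatctccTGAACATcacaaacttg
TNRC6B, 6274 nt after the stop codon, chr22:40725509-40725536: caagaatctgTGAACATAgtaataacaa
TNRC6B, 9567 nt after the stop codon, chr22:40728802-40728828: ttttaaaataTGAACATgtaaatagca
AGO1, 7262 nt after the stop codon, chr1:36392460-36392486: taccctgcagGAACATActgtgtcctg
The third TNRC6B site carries the joined word of 8 bases, which 3.92% of all 11844 genes searched hold and 20.5% of the 132 with a 3′ UTR of at least 10000 nt. Among those 132 genes the median siTARG1 log2 fold change was -0.0983 with the joined word and -0.00658 without it. Whether the word has a part in the TNRC6B value was not tested.

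Length has to be read beside these matches. Either word occurred in 19.5% of all genes searched, but in 78.0% of those 132 genes, and 18 of them (13.6%) held as many sites as TNRC6B or more. Members not called lower in siTARG1 held the words too. AGO2 had 2 sites in 11888 nt, AGO3 had 1 in 16755 nt, and AGO4, TNRC6A and DICER1 had 1 each. DROSHA and XPO5, with 938 and 1534 nt searched, had none. The model matched for TNRC6C covered only 2.38% of the 3′ UTR that was counted, so that gene was not searched in full. Genes called higher had such words too. TGAATAT and GAATATA differed most for them. TGAATAT occurred in 39.3% of the 857 genes called higher with a 3′ UTR model and in 19.0% of the other 10987. GAATATA occurred in 33.5% and 13.9%. These words occurred at 4 places in AGO3, 2 in AGO2 and 1 each in AGO1 and TNRC6B. None of these 4 genes was called higher by DESeq2.

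The second comparison asked whether losing the modified sites of RACK1 altered the same genes. None of the 10 was called (0 at an unadjusted p under 0.05, and 0 with edgeR), where 0.0799% of 12520 genes tested were called. The log2 fold changes lay between -0.15 and 0.17, and every adjusted p was 1.0. The normalised groups did not overlap for 1 gene, AGO1, where this held for 37.6% of all genes.

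TNRC6B gave 396 and 329 footprints in RACK1-WT and 290 and 229 in RACK1-Mut. Normalised, these overlapped (log2 fold change 0.17, 95% interval -0.14 to 0.49). AGO1 gave 179 and 167 against 137 and 109, with an interval of -0.26 to 0.58, and AGO2 gave 288 and 279 against 178 and 199, with an interval of -0.28 to 0.42. For XPO5 and DROSHA the intervals ran from -0.22 to 0.22 and from -0.26 to 0.26, and for DICER1 from -0.20 to 0.50. Those of AGO4 (-0.89 to 1.07) and TNRC6C (-0.92 to 0.61) were wider. Within the TNRC6 family, TNRC6A made up 34.3% and 34.7% in RACK1-WT and 31.8% and 35.9% in RACK1-Mut, and these overlapped.

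The difference between both effects was tested directly in a fit of all 8 libraries. The effects come from separate experiments that also differ in line, doxycycline and kind of trigger, and these cannot be told apart in the difference. The difference was called for 2 of the 10 genes, TNRC6B and AGO1, both negative, where 12.3% of all 12955 genes were called and 6.91% with that sign. The siTARG1 effect minus the RACK1-Mut effect was -1.80 on the log2 scale for TNRC6B (standard error 0.246, adjusted p = 2.37e-11, DESeq2) and -0.91 for AGO1 (standard error 0.293, adjusted p = 0.0183, DESeq2). TNRC6B kept this call under every alternative. AGO1 lost it when any library other than the second of siTARG1 was left out, with values over all alternatives from -1.09 to -0.73.

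The third comparison set the 4 siRNA libraries against the 4 RACK1 libraries. The experiment, the engineered line, doxycycline, transfection and the kind of trigger all changed together between them, and these cannot be told apart. The footprints of 7 of the 10 genes differed, 5 higher and 2 lower in the siRNA libraries, where 46.5% of all 12955 genes were called, 21.6% as higher and 24.9% as lower. For 5 of the 10 genes every siRNA library lay on the same side of every RACK1 library, as it did for 40.0% of all genes. A count of 7 among 10 genes was not tested against that background.

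TNRC6A moved most. It gave 538, 369, 501 and 341 footprints in the siRNA libraries and 251, 215, 157 and 156 in the RACK1 libraries, although the RACK1-WT libraries were the deepest. Its normalised count was 532 ± 26.9 in siControl, 467 ± 27.5 in siTARG1, 156 ± 11.1 in RACK1-WT and 166 ± 10.6 in RACK1-Mut (SD, n = 2). The log2 difference was 1.63 with a standard error of 0.104, which is 3.10-fold (adjusted p = 7.02e-54, DESeq2). Only 45 of the 6718 genes with a mean of at least 100 normalised counts had a larger positive value. Across these groups TNRC6A went from the third place among the 10 genes to the eighth.

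DICER1 was 1.88-fold higher in the siRNA libraries. Its normalised counts were 415 ± 12.8 and 374 ± 1.75 in siControl and siTARG1 and 199.7 ± 14.7 and 220.0 ± 38.0 in RACK1-WT and RACK1-Mut (SD, n = 2; log2 difference 0.91, standard error 0.108, adjusted p = 6.3e-16, DESeq2). On this scale no siRNA library overlapped with a RACK1 library. By the authors' RPKM they did overlap, with 4.058 in the second siTARG1 library and 5.492 in the first RACK1-Mut library. The other nuclease, DROSHA, was 1.34-fold higher (log2 difference 0.42, adjusted p = 6.54e-06, DESeq2), and XPO5 was 1.26-fold higher (0.33, adjusted p = 2.2e-05, DESeq2). Both directions depended on the scaling. By the authors' RPKM, group means of DROSHA in siControl, siTARG1, RACK1-WT and RACK1-Mut were 8.25, 9.56, 9.78 and 11.2. Those of XPO5 were 15.8, 15.5, 18.4 and 20.9, so both genes were lower in the siRNA groups. TNRC6A kept its direction by RPKM, at 6.92, 5.87, 2.94 and 3.56, and so did AGO2, at 2.68, 3.77, 8.19 and 9.8. AGO1 was 1.31-fold higher (0.39, adjusted p = 0.0194, DESeq2), but its siTARG1 and RACK1 libraries overlapped, and 9 of the 16 alternatives kept the call. Its RPKM means in the same order of groups were 6.17, 3.51, 5.0 and 6.37, which did not set the siRNA groups above the RACK1 groups.

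AGO2 was lower. It gave 102, 51, 128 and 109 footprints in the siRNA libraries and 288, 279, 178 and 199 in the RACK1 libraries. Normalised, the means were 87.7 ± 23.7, 134 ± 13.3, 191 ± 3.02 and 200.1 ± 29.4 for siControl, siTARG1, RACK1-WT and RACK1-Mut (SD, n = 2), and no siRNA library reached a RACK1 library. The log2 difference was -0.84 with a standard error of 0.153 (adjusted p = 2.44e-07, DESeq2), a level of 55.7%. TNRC6B was also lower, at 75.2% (log2 difference -0.41, standard error 0.123, adjusted p = 0.00263), but this mean joined siTARG1, below the RACK1 groups, with siControl, above them. Without the first siTARG1 library the call was lost (adjusted p = 0.0691). With the control arms alone, siControl against RACK1-WT, TNRC6B was instead higher (log2 difference 0.49, adjusted p = 0.0126, DESeq2). By the authors' RPKM, siControl lay below both RACK1 groups for TNRC6B, at 4.65 against 4.78 and 6.16. AGO3, AGO4 and TNRC6C did not pass the test.

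In the control arms alone 6 of the 10 genes were called, where 30.3% of 12532 genes were. TNRC6A differed there by 1.77, DICER1 by 1.06, AGO1 by 0.85 and XPO5 by 0.32 on the log2 scale, AGO2 by -1.10, and DROSHA by 0.29 without passing the test (adjusted p = 0.113). The TNRC6 composition followed: TNRC6A made up 57.8% to 80.9% of the family in the siRNA libraries and 31.8% to 35.9% in the RACK1 libraries, and TNRC6B 17.1% to 39.0% and 55.2% to 61.5%. The summed TNRC6 level was 77.0 ± 6.08 and 83.2 ± 1.82 per kb in RACK1-WT and RACK1-Mut (SD, n = 2), below both siRNA groups. The summed Argonaute level was 162 ± 4.84 and 172 ± 3.29 per kb (SD, n = 2), which overlapped with siControl and lay above both siTARG1 libraries. AGO2 made up more of the family than AGO1 in all 4 RACK1 libraries and also in both siTARG1 libraries, by as little as 36.4% against 35.9%, and less in both siControl libraries.

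By the closeness of centred log2 counts over the 8 libraries, the genes most like AGO2 were SAMD1, GNL3 and POLR2K, with root mean square differences of 0.113, 0.117 and 0.138 beside a median of 0.574 over 6718 genes. Those most like DICER1 were CALD1, FBXL12 and ADGRG6, at 0.081, 0.0899 and 0.107 beside a median of 0.494. The 8 libraries fall into the same experiments and groups for every gene, and closeness here says no more than that.

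Footprints outside the coding sequence were described as a share of all footprints of a gene in its UTRs and coding sequence. DROSHA carried a steady 5′ UTR signal. Of its footprints 12.9% lay in the 5′ UTR (519 of 4012 over the 8 libraries, Wilson 95% interval 11.9% to 14%), and single libraries ranged from 11.4% to 15.3%. Over all genes the share was 4.10%, and 8.73% of genes with at least 100 counts equalled or exceeded DROSHA. Its longest annotated 5′ UTR, 369 nt, holds 5 ATG triplets upstream of the start codon, where 49.97% of genes tested hold at least 1. DICER1, with 10 such triplets in 403 nt, had 5.34% of its footprints in the counted 5′ UTR, and XPO5, with none in 174 nt, 0.978%. AGO4, with none in 401 nt, had 12.6% (27 of 214 footprints). The counted 5′ UTRs were not the ones searched, at 673 nt for DICER1, 211 nt for XPO5 and 245 nt for AGO4. Triplets and shares therefore do not cover the same sequence, and no order is read from them. AGO2 had 4 of 1422 footprints in its 5′ UTR.

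AGO2 differed in its 3′ UTR. There it gave 15 and 17 counts in siControl, 7 and 30 in siTARG1, 5 and 4 in RACK1-WT and 3 and 3 in RACK1-Mut. As shares these were 12.7% and 25.0%, 5.19% and 21.6%, 1.71% and 1.41%, and 1.66% and 1.46%. Every siRNA library lay above every RACK1 library, while the spread within the siRNA groups was wide. It followed the replicate number, with 12.7% and 5.19% in the first libraries and 25.0% and 21.6% in the second. The share over all genes was 1.11% and 1.54% in the first and 1.76% and 1.87% in the second. Pooled, the shares were 15.0% (Wilson 95% interval 12% to 18.6%) and 1.56% (0.947% to 2.56%). The coding counts of AGO2, which enter the denominator of this share, were at 55.7% of the RACK1 level in the siRNA libraries after normalisation. The 3′ UTR counts alone summed to 69 in the siRNA libraries and 15 in the RACK1 libraries, which were deeper in total. The 3′ UTR share of all genes was also higher in the siRNA libraries, at 1.54% against 0.725%, and its part in the AGO2 value was not tested. Of genes with at least 100 counts, 0.977% reached the AGO2 share in the siRNA libraries and 11% in the RACK1 libraries. No other member exceeded 2.27% pooled in either set. This gene was singled out after its values were seen, and intervals cover counting error only.

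**Figure D4:**
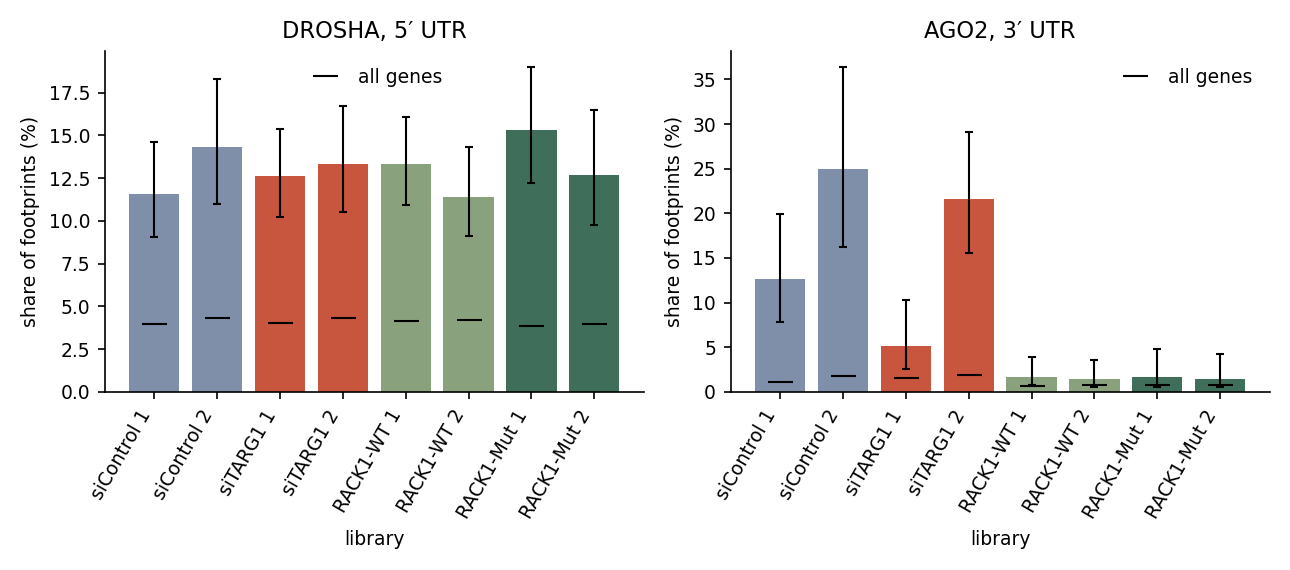
Share of footprints in the 5′ UTR of DROSHA (left) and the 3′ UTR of AGO2 (right), in percent, with a bar for each library, Wilson 95% intervals for counting error, and a dash for the share over all genes in that library. DROSHA stays between 11.4% and 15.3% throughout, whereas AGO2 runs from 5.19% to 25.0% in siRNA libraries and from 1.41% to 1.71% in RACK1 libraries.

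AGO4, at far lower depth, placed 22 of 102 footprints of the siRNA libraries and 5 of 112 of the RACK1 libraries in its 5′ UTR, 21.6% and 4.46%. Its 5′ UTR counts of 0, 5, 7 and 10 in the siRNA libraries and 2, 1, 0 and 2 in the RACK1 libraries gave shares that overlapped across the sets.

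Genes that act with the members were grouped into lists of partners. Of 11 processing partners tested in siTARG1 against siControl, 3 were called lower and none higher, where 9.19% and 7.18% of all genes were. They were NCBP2, a subunit of the nuclear cap-binding complex (log2 fold change -0.70, adjusted p = 0.00232), the RNA helicase DDX17 (-0.26) and the RNA deaminase ADAR (-0.27). Of 17 loading factors and Argonaute regulators tested, 4 were called lower and 2 higher. FKBP4, an HSP90 cochaperone, gave 905 and 642 footprints in siControl and 314 and 190 in siTARG1 (log2 fold change -1.71, adjusted p = 8.29e-30). CSNK1A1, a kinase, and ANKRD52, a regulatory subunit of the phosphatase acting on the same Argonaute serines, differed in opposite directions, by -0.67 and 0.65 (adjusted p = 3.8e-06 and 3.25e-07, DESeq2).

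Of 24 effectors downstream of TNRC6, 7 were called higher and 3 lower in siTARG1, where 7.18% and 9.19% of all genes were, with a list median of 0.11 beside 0.00 over all genes tested. The scaffold of the deadenylase complex, CNOT1, gave 450 and 270 footprints in siControl and 815 and 599 in siTARG1 (log2 fold change 0.91, adjusted p = 5.54e-09). CNOT6, a catalytic subunit of the same complex, gave 65 and 48 against 17 and 15 (-1.89, adjusted p = 0.00126). The decapping enzyme DCP2 was higher by 2.67 (adjusted p = 1.2e-18). None of the 5 genes of microRNA tailing and decay that could be tested was called by DESeq2, with 1 at an unadjusted p under 0.05 and 1 called by edgeR. In RACK1-Mut against RACK1-WT none of these 57 partners was called by DESeq2 or edgeR, with 1 at an unadjusted p under 0.05.

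Between the siRNA and the RACK1 libraries, 7 of 11 processing partners were called higher and 2 lower, with ADAR 0.65 higher on the log2 scale. Of the 17 regulators 6 were higher and 7 lower, and of the 24 effectors 7 and 3. Of the 5 genes of microRNA tailing and decay 3 were higher and 1 lower, with a list median of 0.53 beside -0.04 over all genes tested. ANKRD52, at 1.54 (adjusted p = 2.88e-71), was higher, and FKBP4, at -1.23 (adjusted p = 6.76e-63), was lower. Both values joined siControl with siTARG1, between which ANKRD52 differed by 0.65 and FKBP4 by -1.71. FKBP4 gave 905 and 642 footprints in siControl, 314 and 190 in siTARG1 and 1059 to 1819 in the RACK1 libraries. Against a background where 21.6% of genes were called higher and 24.9% lower, these counts are given as a description. The germline Argonautes PIWIL1, PIWIL2, PIWIL3 and PIWIL4 gave 0 to 2 counts in every library, and a count of 0 allows up to 3.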

How the data were processed

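Footprints of 28 to 34 nt were isolated from 80S ribosomes of OVCAR3 cells, with 2 libraries in each of 4 groups. The authors removed linkers, molecular identifiers and contaminant reads, with Bowtie 1.1.2 and TopHat2 2.1.1 named in the submitters' processing notes, and aligned the rest to the transcriptome, allowing several positions per read. They deposited 1 table per library of raw read counts over the exons, 5′ UTR, coding sequence and 3′ UTR of 20165 merged GENCODE 24 gene regions on GRCh37, beside RPKM values that the authors computed from those counts. Per the file headers, reads of 26 to 36 nt were placed 14 nt from their 5′ end, whereas the methods name an offset from the 3′ end.

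Coding counts were tested with DESeq2 1.42.0 in R 4.3.3 (the study's tool), over all genes with at least 10 summed counts, with Benjamini-Hochberg adjustment over those kept by its independent filtering and calls at an adjusted p under 0.05. The siTARG1 and the RACK1-Mut comparison were fitted on 4 libraries each, and the contrasts of siRNA and RACK1 libraries and of both effects on all 8. The filtering left 935 genes of the siTARG1 comparison and 2010 of the difference of effects without an adjusted p, and these count as tested and not called. edgeR 4.0.16, other filters and scalings, exon counts, thinned counts and single libraries left out were tried as alternatives. The authors' RPKM was set only against the order of the genes within each group. The fits were checked on simulated counts. The methods describe the sequencing experiments as repeated on independent biological samples.

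Regions were named, and sequences taken, through GENCODE 44 lifted to GRCh37. 553 regions matched no symbol and 452 matched several. Each 3′ UTR was that of the transcript with the longest one. MAFFT 7.526 aligned coding sequences. The text names the 10 genes in every comparison, OARD1 and RACK1 as checks, of each partner list the 3 called genes with the largest change in siTARG1 or RACK1-Mut at a mean of at least 20 counts, and for AGO2 and DICER1 the 3 genes of closest pattern with a mean of at least 100. The members, lists, tests and words were chosen with earlier results of these data known. A further marker of the leukocyte list is not reported here.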

Additional observations from a re-analysis of the deposited data

Results flagged for a closer look

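The siTARG1 effect on TNRC6B and on AGO1 differed from the RACK1-Mut effect by a direct test of the difference. The experiments also differ in line, doxycycline and kind of trigger, which cannot be told apart here. For TNRC6B the siTARG1 effect minus the RACK1-Mut effect was -1.80 on the log2 scale (95% interval -2.28 to -1.32, adjusted p = 2.37e-11, DESeq2). Both siTARG1 libraries lay below both siControl libraries, while RACK1-WT and RACK1-Mut overlapped. For AGO1 it was -0.91 (95% interval -1.48 to -0.33, adjusted p = 0.0183, DESeq2). Over 12 alternatives the adjusted p of AGO1 ranged from 0.00103 to 0.189, and that of TNRC6B stayed at or below 2e-06. Groups of 2 libraries are too small to single out a library that stands apart.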

How the results depend on the processing

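In siTARG1 against siControl, 104 of 110 values for single members kept their side of the threshold over 12 alternatives. AGO1 lost its call in 5 and AGO2 gained one with edgeR. The members called were 2, and 1 (TNRC6B) whenever a library was left out. The genes called were 1974 with DESeq2, 3470 with edgeR and 564 to 744 without a library, where the lone library of an arm is assumed to vary like the others. In RACK1-Mut against RACK1-WT no alternative called a member, and the genes called went from 10 to 30 with edgeR and to 1 to 3 without a library. In siRNA against RACK1 libraries 147 of 159 values kept their side. The genes called were 6021, and 3801 with siControl and RACK1-WT libraries only, where TNRC6B changed sign to 0.49. TNRC6C was called lower with edgeR (adjusted p = 0.0292) and without the second siTARG1 library (0.0178). For the difference of the effects the genes called were 1598, 2695 with edgeR and 887 to 1134 without a library, a setting added after seeing the data, which left 1 to 2 members called. Whether same-numbered libraries form pairs was not settled. Over genes they correlated in their deviations at 0.0294 for the siRNA groups and 0.0993 for the RACK1 groups. Coding counts of the siRNA groups did follow the number, with 4207939 and 4207861 in the first libraries against 3100947 and 3145173 in the second. So did their 5′ UTR shares, at 3.97% and 4.02% against 4.33% and 4.34%, and their 3′ UTR shares, at 1.11% and 1.54% against 1.76% and 1.87%. With a replicate block, 1 member (TNRC6B) and 1125 genes were called in siTARG1 against siControl, 6 genes and no member in RACK1-Mut against RACK1-WT, 7 members in siRNA against RACK1 libraries, and 2 in the difference. AGO1 then had an adjusted p of 0.0945. The cause of these changes was not tested. Depth limits AGO4 and TNRC6C, whose counts never passed 58 in a library. RPKM was not among the alternatives of any comparison. By it the group means of XPO5 and DROSHA were lower in the siRNA groups than in the RACK1 groups.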
